A study of Mus musculus with 4 samples.

Results

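RNA of immunoglobulin gene segments was followed in the inflamed colon of mice labelled as knockout (KO) for Elf4, which encodes an Ets transcription factor. The deposited table was searched for gene symbols that name an immunoglobulin heavy, kappa or lambda variable (V) segment or a constant segment. This gave 90 of 4121 listed genes, made up of 43 heavy V segments, 42 kappa V segments, 3 lambda V segments and the 2 constant segments Ighg2c and Iglc1. RNA came from the distal colon of C57BL/6 mice aged 8 weeks, taken at day 6 after treatment began with 3% dextran sulfate sodium (DSS), which injures the colon epithelium. There were 2 samples from Elf4-KO mice and 2 from WT mice, and both genotypes received DSS, so untreated colon was no part of the comparison. The labels give neither the design of the Elf4 allele nor the number of animals behind each sample.

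An antibody is built from heavy and light chains. Each B cell joins a single heavy V segment, and a single kappa or lambda V segment, to short joining pieces and then to a constant segment, so RNA of a V segment comes mostly from the cells that chose it. Plasma cells, the antibody-secreting descendants of B cells, carry far more of this RNA than resting B cells do. In the gut wall most plasma cells make IgA, which the receptor encoded by Pigr carries across the epithelium. Mouse antibodies use kappa light chains far more often than lambda chains. In bulk tissue, fewer cells of a type and less RNA per cell cannot be told apart.

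The values are FPKM, fragments per kilobase of transcript scaled to the size of the library, with a single value for each genotype that the authors formed from both samples. No spread between samples, standard deviation or test of a difference can therefore be given, and the read depth is unknown. The table holds genes that passed the authors' own comparison, with q of at most 0.05 and a difference of at least 2-fold in the authors' deposited table. Rose and fell below mean this call, and segments outside the table are not analysed here. Elf4 itself had 3.51 FPKM in Elf4-KO colon, against 16.4 FPKM in WT colon, so part of its RNA was still measured in the libraries labelled Elf4-KO. Of functional V genes in the annotation, 41 of 115 heavy, 42 of 100 kappa and 3 of 3 lambda genes were listed. This was 39.4% in all, beside 17.5% of annotated protein-coding genes. The latter were counted whatever their level in colon, so these shares are not matched for level. The smallest q of the table, 0.000372, was given to 61 of the 90 segments in the authors' deposited table, beside 2233 of all 4121 listed genes. Where the higher genotype had at least 100 FPKM, it was given to 59 of 81 segments and 483 of 543 other listed genes.

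Coding sequences of 86 of the 88 listed V segments were taken from GENCODE M21 on GRCm38, the other 2 being annotated pseudogenes. Some are shown first because many segments are near copies of each other, and reads from near copies are hard to assign. The pair below is the most alike pair of heavy V segments of which the first rose and the second fell. Ighv14-1 lies at chr12:113931953-113932382 and Ighv14-4 at chr12:114176438-114176867, both on the minus strand with 2 exons, a leader exon and the V exon. They differ at 9 of 351 coding bases. The last 300 are printed for this and the later sequences, 5′ to 3′ on the coding strand, and capitals mark the 8 differences within them.
Ighv14-1: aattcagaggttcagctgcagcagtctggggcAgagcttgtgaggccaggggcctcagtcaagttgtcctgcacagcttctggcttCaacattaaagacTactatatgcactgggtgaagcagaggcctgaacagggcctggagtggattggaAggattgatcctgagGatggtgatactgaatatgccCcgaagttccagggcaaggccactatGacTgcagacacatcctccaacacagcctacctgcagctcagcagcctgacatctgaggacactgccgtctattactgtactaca
Ighv14-4: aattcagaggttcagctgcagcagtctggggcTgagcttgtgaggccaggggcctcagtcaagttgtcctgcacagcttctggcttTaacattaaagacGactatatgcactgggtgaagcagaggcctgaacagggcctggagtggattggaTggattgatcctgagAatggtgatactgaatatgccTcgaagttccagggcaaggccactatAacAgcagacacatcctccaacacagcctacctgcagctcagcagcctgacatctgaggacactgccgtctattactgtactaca

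The corresponding kappa pair is Igkv8-28 (chr6:70143593-70144166), which rose, and Igkv8-19 (chr6:70340876-70341453), which fell. Both are on the minus strand. They differ at 7 of 305 annotated coding bases, and capitals mark the 7 that are shown.
Igkv8-28: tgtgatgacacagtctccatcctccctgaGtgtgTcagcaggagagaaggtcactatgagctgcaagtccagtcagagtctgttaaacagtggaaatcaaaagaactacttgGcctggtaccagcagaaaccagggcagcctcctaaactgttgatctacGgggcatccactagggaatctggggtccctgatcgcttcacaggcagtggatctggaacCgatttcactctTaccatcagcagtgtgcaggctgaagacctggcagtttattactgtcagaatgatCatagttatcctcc
Igkv8-19: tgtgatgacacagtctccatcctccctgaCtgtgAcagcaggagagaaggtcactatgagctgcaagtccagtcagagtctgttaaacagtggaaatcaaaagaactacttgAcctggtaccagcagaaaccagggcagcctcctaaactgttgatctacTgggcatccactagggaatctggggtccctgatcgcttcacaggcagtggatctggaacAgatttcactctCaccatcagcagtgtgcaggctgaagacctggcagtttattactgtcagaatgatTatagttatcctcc

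For contrast, Igkv3-10 (chr6:70572633-70573230) and Igkv3-5 (chr6:70663275-70663895), on the plus strand, are the most alike kappa pair of which both members fell. They differ at 6 of 359 coding bases, with the 6 that are shown in capitals.
Igkv3-10: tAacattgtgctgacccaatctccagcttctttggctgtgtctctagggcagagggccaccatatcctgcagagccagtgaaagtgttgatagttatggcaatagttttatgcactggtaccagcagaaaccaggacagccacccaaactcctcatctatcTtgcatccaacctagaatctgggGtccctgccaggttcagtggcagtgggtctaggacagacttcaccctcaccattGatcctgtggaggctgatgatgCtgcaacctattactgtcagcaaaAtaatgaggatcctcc
Igkv3-5: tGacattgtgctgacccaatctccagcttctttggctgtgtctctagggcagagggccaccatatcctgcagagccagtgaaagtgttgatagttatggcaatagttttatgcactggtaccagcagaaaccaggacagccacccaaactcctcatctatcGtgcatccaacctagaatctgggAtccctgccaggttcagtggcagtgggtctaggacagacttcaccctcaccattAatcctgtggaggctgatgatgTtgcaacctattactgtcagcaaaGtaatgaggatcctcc

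Iglv1 (chr16:19085017-19085500, minus strand) had the highest level of any listed immunoglobulin segment in Elf4-KO colon, and Igkv4-51 (chr6:69681406-69681975, minus strand) the largest rise. Capitals here mark a match to TATTNNTGN, the letters around the conserved cysteine codon that precedes the third hypervariable loop. The match was sought on the coding strand in the last 45 coding bases and was found in 90 of 115 annotated heavy and 87 of 100 annotated kappa V genes (78.3% and 87.0%). Among 3 annotated lambda V genes, 2 held it.
Iglv1: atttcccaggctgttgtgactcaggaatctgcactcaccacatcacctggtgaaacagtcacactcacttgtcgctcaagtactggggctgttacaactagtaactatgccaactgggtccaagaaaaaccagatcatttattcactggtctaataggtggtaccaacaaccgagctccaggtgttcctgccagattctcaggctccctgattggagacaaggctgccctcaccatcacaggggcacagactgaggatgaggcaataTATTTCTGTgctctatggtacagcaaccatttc
Igkv4-51: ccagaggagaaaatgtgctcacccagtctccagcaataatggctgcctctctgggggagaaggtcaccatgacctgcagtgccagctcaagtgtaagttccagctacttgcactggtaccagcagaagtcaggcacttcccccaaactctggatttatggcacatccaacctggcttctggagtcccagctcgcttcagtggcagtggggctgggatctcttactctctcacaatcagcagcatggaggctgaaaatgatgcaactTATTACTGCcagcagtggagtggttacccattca

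Listed immunoglobulin segments moved both ways in Elf4-KO colon, each by at least the 2-fold limit of the table. Of 90 listed segments, 51 (56.7%) were higher and 39 (43.3%) lower in Elf4-KO colon, beside 48.0% higher and 52.0% lower over the whole table. A difference of at least 4-fold was seen in 51 segments (56.7%), beside 37.5% of all listed genes. Of these, 31 were higher and 20 lower, where 12.9% and 24.5% of all listed genes were. At least 10-fold differences were listed for 21 segments (23.3%), beside 12.0% of all listed genes. Both limits count the 4 segments listed at 0 in a genotype as past the fold, and treat all listed genes alike. The median log2 ratio of Elf4-KO over WT, after adding 1 to both FPKM values, was 1.20 for the segments and -0.76 over the whole table.

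These segments are also among the most abundant listed RNAs. Together they summed to 58119 FPKM in Elf4-KO colon, against 30475 FPKM in WT colon, and took 24.4% of all listed FPKM in Elf4-KO and 11.1% in WT. The ratio of the sums, Elf4-KO over WT, was 1.91, and 1.51 without Iglv1 and Iglc1, which share a locus. The sums cover listed segments alone, so they do not give the immunoglobulin RNA of the tissue. They also mix V and constant segments, whose values per length are not the same quantity. Of the 50 listed genes with the highest level, 19 were immunoglobulin segments in Elf4-KO and 8 in WT. Where the higher genotype had at least 100 FPKM, the share past 10-fold was close to that of other genes, 19.8% of 81 segments and 20.8% of 543 other genes. Within that range 54.3% of segments and 51.6% of other genes passed 4-fold, and 59.3% of segments and 34.3% of other genes were higher in Elf4-KO. With a single value per genotype none of these contrasts could be tested.

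**Figure D1:**
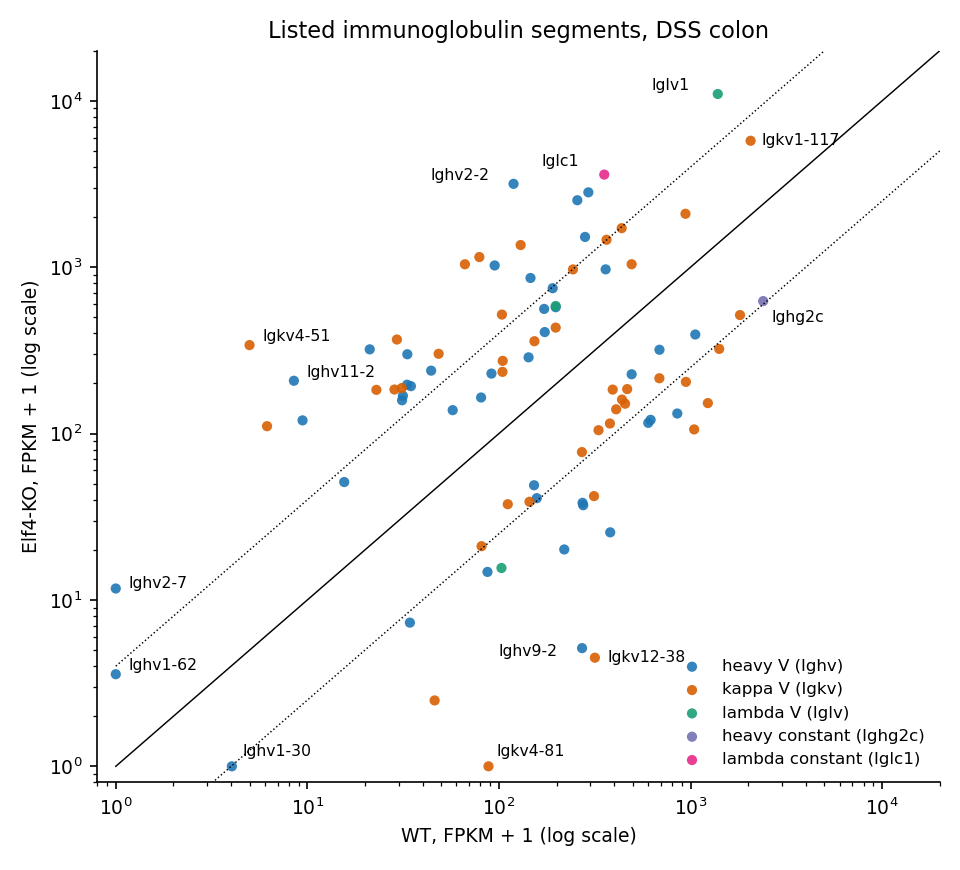
FPKM + 1 of the 90 listed immunoglobulin segments in Elf4-KO colon (vertical, log scale) and WT colon (horizontal, log scale), 1 point per segment, coloured by chain. The solid line marks equal values and the dotted lines 4-fold differences of FPKM + 1; 51 points lie above the solid line and 39 below it, and the empty band along it comes from the 2-fold limit of the table.

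The constant segments moved in opposite directions. Ighg2c (chr12:113285325-113288932), the constant gene of IgG2c, which C57BL/6 mice carry in place of IgG2a, had 624 FPKM in Elf4-KO colon, against 2394 FPKM in WT colon. It fell 3.83-fold and had the highest level of all listed segments in WT. Iglc1 (chr16:19061618-19062071), the constant gene of the lambda 1 light chain, had 3602 FPKM in Elf4-KO colon, against 354 FPKM in WT colon, a 10.2-fold rise. Of 8 annotated heavy constant genes, 1 was listed, so Igha, Ighm, Ighd, Ighe, Ighg1, Ighg2b and Ighg3 are not analysed here, and neither is the kappa constant gene Igkc. Of 4 lambda constant genes, Iglc2, Iglc3 and Iglc4 are likewise outside the table.

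All 3 annotated lambda V genes were listed, and the lambda 1 chain dominated them. Iglv1 had 10991 FPKM in Elf4-KO colon, against 1387 FPKM in WT colon, a 7.93-fold rise, which made it the listed gene of rank 2 in Elf4-KO and of rank 26 in WT. Iglv2 (chr16:19260401-19260859) rose 2.96-fold, with 584 FPKM in Elf4-KO colon, against 197 FPKM in WT colon. Iglv3 (chr16:19241207-19241690) went the other way and fell 7.01-fold, with 14.6 FPKM in Elf4-KO colon, against 102 FPKM in WT colon. In the mouse Iglv1 is joined to the Iglc1 or Iglc3 cluster, whereas Iglv2 and Iglv3 are joined to Iglc2. Iglv1 and Iglv2 share 96.3% of their aligned coding bases, while Iglv3 is 55.4% identical to Iglv1, its nearest segment. The table gives Iglv1 and Iglc1 the same locus, wider than either annotated gene, so how fragments were divided between them is uncertain.

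The summed level of the lambda V segments was 11589.6 FPKM in Elf4-KO colon, against 1686 FPKM in WT colon, a ratio of 6.87. Without Iglv1 it was 2.0. Listed kappa V segments summed to 22825 FPKM in Elf4-KO colon and 16989.8 FPKM in WT colon. Of the listed light chain V sum, lambda made up 33.7% in Elf4-KO and 9.03% in WT. These shares leave out the 58 annotated kappa V genes outside the table, so they do not give the lambda share of the tissue.

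**Figure D2:**
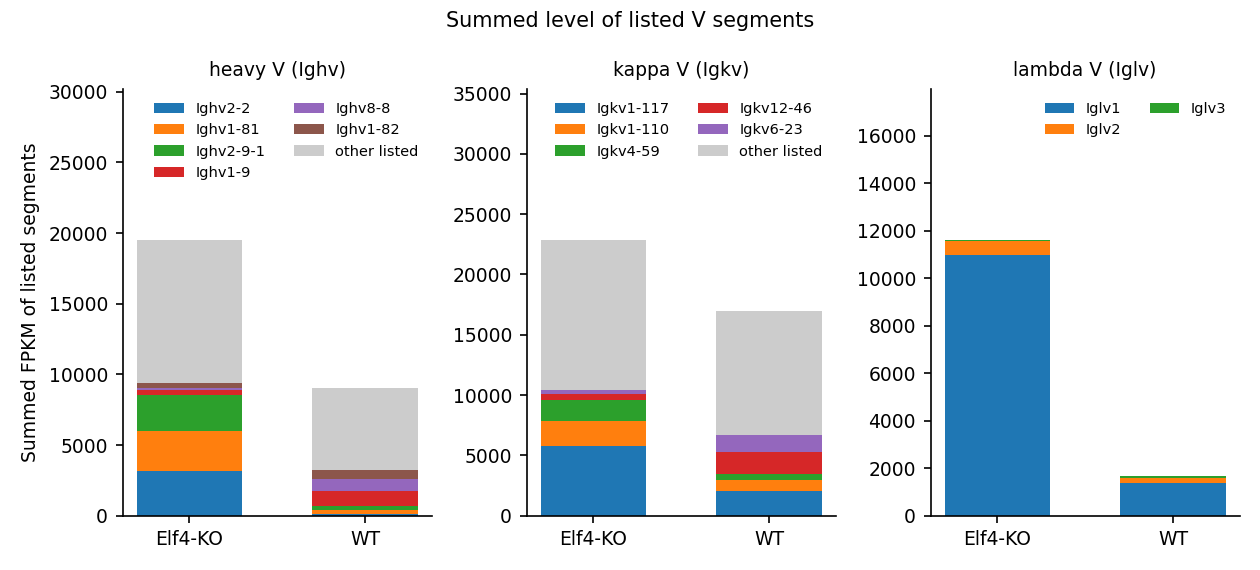
Summed FPKM of the listed heavy, kappa and lambda V segments in Elf4-KO and WT colon, with the 3 highest segments of each genotype coloured, the other listed segments in grey and a scale of its own in each panel. Each genotype has a single value per segment, so there are no error bars; Iglv1 makes up 94.8% of the lambda bar in Elf4-KO and 82.3% in WT.

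Of 43 listed heavy V segments, 27 rose (62.8%, beside 48.0% of all listed genes) and 16 fell. The log2 ratios had a median of 1.43 and a range of -5.73 to 4.73. Their FPKM summed to 19478 in Elf4-KO colon, against 9051 in WT colon. The 5 highest segments held 56.8% of the listed heavy V sum in Elf4-KO and 42.2% in WT. Every listed gene differs by at least 2-fold, so the table itself favours different segments at the top of each genotype and fixes most of their directions. In Elf4-KO the 5 were Ighv2-2, Ighv1-81, Ighv2-9-1, Ighv1-53 and Ighv7-3, and in WT Ighv1-9, Ighv8-8, Ighv1-82, Ighv14-3 and Ighv1-19. The effective number of segments, the inverse of the summed squared shares, was 12.0 in Elf4-KO and 18.8 in WT. It covers listed segments alone, here and for kappa, and is not the evenness of the whole repertoire.

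The Ighv2 family, 7 of whose 9 annotated genes were listed, had the largest change in summed level among heavy families with several listed members. Its sum was 6941 FPKM in Elf4-KO colon, against 980.0 FPKM in WT colon. Of the 7 listed members 5 rose, beside 48.0% of all listed genes, and 2 fell. Ighv2-2 (chr12:113588267-113588702) had 3169 FPKM in Elf4-KO colon, against 118 FPKM in WT colon, a 26.8-fold rise to the highest heavy V level in Elf4-KO. Its nearest segment, Ighv2-4, is 97.7% identical and lies outside the table. Ighv2-9-1 rose 9.88-fold (2525 FPKM in Elf4-KO, against 256 FPKM in WT), Ighv2-5 rose 9.26-fold (299 FPKM in Elf4-KO, against 32.3 FPKM in WT) and Ighv2-9 rose 5.93-fold (860.2 FPKM in Elf4-KO, against 145 FPKM in WT). Ighv2-7 was listed at 0 in WT and had 10.7 FPKM in Elf4-KO. The exceptions were Ighv2-3, with 37.3 FPKM in Elf4-KO colon, against 272 FPKM in WT colon, and Ighv2-6, with 39.9 FPKM in Elf4-KO colon, against 157 FPKM in WT colon. These share 93.4% of their coding bases with each other, and 93.4% and 93.4% with Ighv2-9, which rose.

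The listed Ighv5 segments moved a single way. All 5 that were listed, of 11 annotated Ighv5 genes, rose, beside 48.0% of all listed genes. The rises lay between 2.02-fold for Ighv5-4 (286 FPKM in Elf4-KO, against 142 FPKM in WT) and 14.1-fold for Ighv5-12 (119 FPKM in Elf4-KO, against 8.44 FPKM in WT). Ighv5-9-1 rose 5.49-fold, Ighv5-6 2.44-fold and Ighv5-16 2.36-fold. Ighv5-4 was the segment nearest to the 2-fold limit of the table. Both listed Ighv10 segments also rose, Ighv10-1 5.69-fold and Ighv10-3 2.05-fold, and they are 96.7% identical.

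Ighv1, the largest heavy family with 54 annotated genes, was divided. Of 17 listed members, 8 rose (47.1%, beside 48.0% of all listed genes) and 9 fell, a split near that of the whole table. The listed members summed to 8314 FPKM in Elf4-KO colon, against 4943 FPKM in WT colon. Ighv1-34 had 319.8 FPKM in Elf4-KO colon, against 20.2 FPKM in WT colon, the largest rise of the family at 15.9-fold. Ighv1-81 had 2817 FPKM in Elf4-KO colon, against 292 FPKM in WT colon, and Ighv1-53 had 1519 FPKM in Elf4-KO colon, against 281 FPKM in WT colon. Ighv1-72, the heavy segment best known from the response of C57BL/6 mice to the hapten NP, in which it pairs with lambda 1 chains, rose 2.91-fold (574 FPKM in Elf4-KO, against 197 FPKM in WT). It differs from Ighv1-62-3, outside the table, at 3 of 351 coding bases, so the 2 are hard to tell apart by their reads. Ighv1-5, Ighv1-78 and Ighv1-69 rose 6.08-fold, 3.93-fold and 2.70-fold.

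Among the Ighv1 members that fell, Ighv1-59 had 19.1 FPKM in Elf4-KO colon, against 218 FPKM in WT colon, an 11.4-fold fall. Ighv1-9 had 393 FPKM in Elf4-KO colon, against 1058 FPKM in WT colon and was the highest heavy V segment of WT. Ighv1-52 and Ighv1-53, neighbours by number, went opposite ways, since Ighv1-52 had 36.1 FPKM in Elf4-KO colon, against 274 FPKM in WT colon. Ighv1-4, Ighv1-19 and Ighv1-74 fell 6.27-fold, 5.23-fold and 3.16-fold, and Ighv1-76 and Ighv1-82 fell 2.17-fold and 2.16-fold. The 2 annotated pseudogenes of the set both belong to this family and had the lowest levels when each segment is taken in its higher genotype. Ighv1-30 was listed at 0 in Elf4-KO and 3.04 FPKM in WT, and Ighv1-62 at 2.58 FPKM in Elf4-KO and 0 in WT, with q of 0.0234 and 0.0422 in the authors' deposited table.

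Ighv14 was split evenly although all 4 of its annotated genes were listed and are close copies. Over all listed genes 48.0% were higher. Ighv14-1 had 238 FPKM in Elf4-KO colon, against 43.3 FPKM in WT colon, and Ighv14-2 had 560.4 FPKM in Elf4-KO colon, against 171 FPKM in WT colon. Ighv14-3 had 119.9 FPKM in Elf4-KO colon, against 618 FPKM in WT colon, and Ighv14-4 had 24.5 FPKM in Elf4-KO colon, against 380.0 FPKM in WT colon. The sequences printed first, Ighv14-1 and Ighv14-4, are 97.4% identical but have log2 ratios of 2.43 and -3.90. The Ighv9 family was split as well. Ighv9-2 had 4.13 FPKM in Elf4-KO colon, against 271 FPKM in WT colon, the largest heavy V fall at 65.5-fold (q = 0.00384 in the authors' deposited table), while Ighv9-4 had 50.1 FPKM in Elf4-KO colon, against 14.6 FPKM in WT colon (q = 0.0420 in the authors' deposited table).

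The other heavy families had a single listed member each. Ighv11-2 (chr12:114048241-114048812), known in mice from B-1a cells that bind phosphatidylcholine, had 207 FPKM in Elf4-KO colon, against 7.51 FPKM in WT colon, a 27.5-fold rise. It is 98.9% identical to Ighv11-1, which is outside the table. Ighv7-3 had 1023 FPKM in Elf4-KO colon, against 94.0 FPKM in WT colon, and Ighv3-8 and Ighv4-1 rose 5.21-fold and 2.53-fold. Ighv8-8 had 131 FPKM in Elf4-KO colon, against 852 FPKM in WT colon, a 6.50-fold fall, and Ighv13-2 fell 5.28-fold at low levels (6.30 FPKM in Elf4-KO, against 33.3 FPKM in WT).

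**Figure D3:**
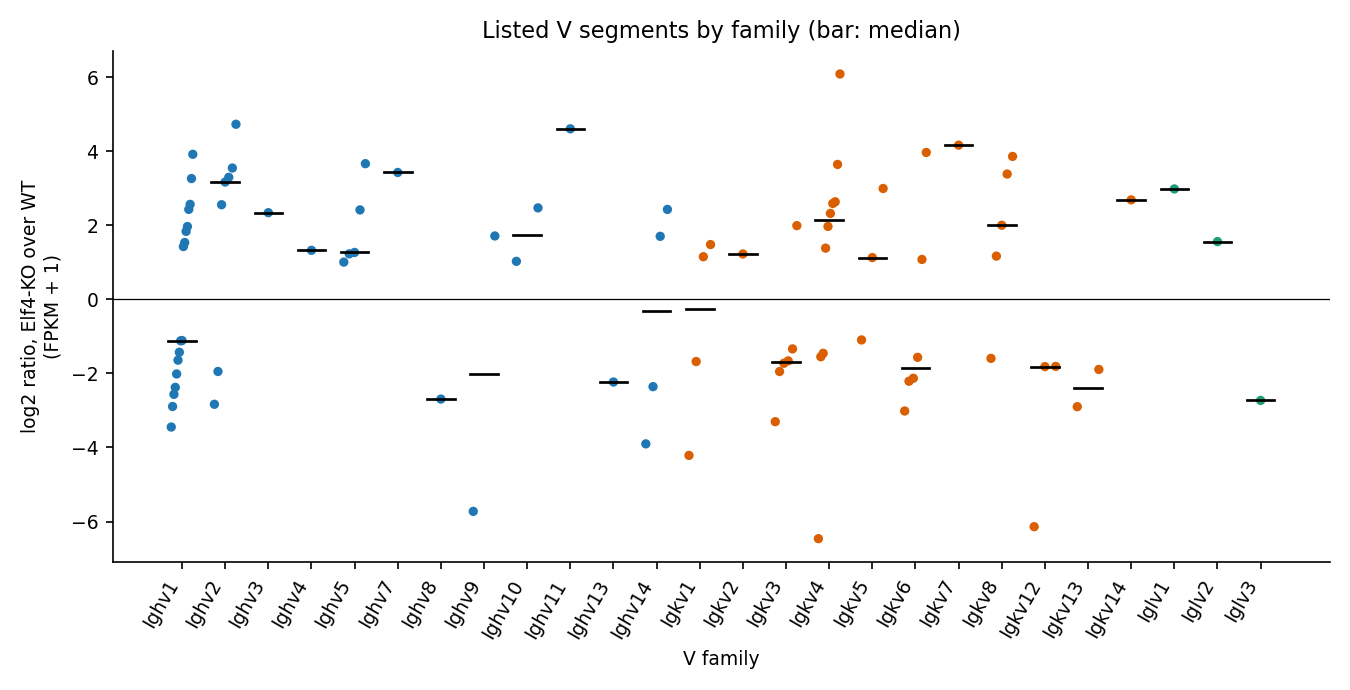
Log2 ratio of Elf4-KO over WT (FPKM + 1, vertical) of each listed V segment, grouped by V family along the horizontal axis; blue points are heavy, orange kappa and green lambda segments, and bars give family medians. All 5 Ighv5 points lie above 0 and all 3 Igkv12 points below it, while 10 of the 14 families with several listed members have points on both sides.

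Of 42 listed kappa V segments, 21 rose (50%, beside 48.0% of all listed genes) and 21 fell, near the split of the whole table. Their median log2 ratio, -0.01, lay in the empty band between the rises and the falls, and took the value 0.75 when centred on the whole table. The sums were 22825 FPKM in Elf4-KO colon and 16989.8 FPKM in WT colon. Igkv1-117 (chr6:68121046-68121827) was the highest kappa segment in both genotypes, with 5754 FPKM in Elf4-KO colon, against 2058 FPKM in WT colon. The effective number of kappa segments was 10.3 in Elf4-KO and 17.4 in WT. Igkv1-117 held 25.2% of the listed kappa V sum in Elf4-KO and 12.1% in WT. The next 4 differed, which the 2-fold limit of the table favours here too. They were Igkv1-110, Igkv4-59, Igkv8-30 and Igkv8-24 in Elf4-KO and Igkv12-46, Igkv6-23, Igkv6-25 and Igkv3-4 in WT.

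Igkv4, the largest kappa family with 26 annotated genes, held both the largest rise and the largest fall of the set on the log2 scale. Of 10 listed members, 7 rose, beside 48.0% of all listed genes, and 3 fell. The listed members summed to 3997 FPKM in Elf4-KO colon, against 1686 FPKM in WT colon. Igkv4-51 had 339 FPKM in Elf4-KO colon, against 3.99 FPKM in WT colon, an 85.0-fold rise. Igkv4-81 (chr6:68990758-68991294) was listed at 0 in Elf4-KO and 87.2 FPKM in WT, so no fold was computed. Igkv4-59, the most abundant of the family in Elf4-KO, had 1716 FPKM in Elf4-KO colon, against 436 FPKM in WT colon. Igkv4-58 rose 12.9-fold (367 FPKM in Elf4-KO, against 28.3 FPKM in WT), and Igkv4-63, Igkv4-50, Igkv4-57-1 and Igkv4-74 rose 6.33-fold, 6.20-fold, 5.05-fold and 2.63-fold. Igkv4-68 and Igkv4-72 fell 2.75-fold and 2.94-fold, and both are over 95% identical to Igkv4-59, which rose (95.7% and 95.2%).

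Of 5 listed Igkv8 segments 4 rose, beside 48.0% of all listed genes, and they summed to 4353 FPKM in Elf4-KO colon, against 1128 FPKM in WT colon. Igkv8-27 had 1149.9 FPKM in Elf4-KO colon, against 78.0 FPKM in WT colon, and Igkv8-24 had 1358 FPKM in Elf4-KO colon, against 129 FPKM in WT colon. Igkv8-30 rose 4.02-fold and Igkv8-28 2.26-fold. Igkv8-19 fell 3.03-fold, with 150.2 FPKM in Elf4-KO colon, against 455 FPKM in WT colon. It is the near copy of Igkv8-28 printed beside it.

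In Igkv3, 5 of 6 listed segments were lower, beside 52.0% of all listed genes, and the family summed to 1496 FPKM in Elf4-KO colon, against 2541 FPKM in WT colon. Igkv3-4 had 105 FPKM in Elf4-KO colon, against 1044 FPKM in WT colon, a 9.95-fold fall. Igkv3-10 and Igkv3-5, the near-identical pair printed above, fell by almost the same amount, 3.32-fold and 3.18-fold, and Igkv3-1 and Igkv3-2 fell 4.0-fold and 2.53-fold. The exception was Igkv3-12, with 969 FPKM in Elf4-KO colon, against 242 FPKM in WT colon. In Igkv6, 4 of 6 were lower (66.7%), beside 52.0% of all listed genes. Igkv6-25 had 151 FPKM in Elf4-KO colon, against 1231 FPKM in WT colon, and Igkv6-23 had 322 FPKM in Elf4-KO colon, against 1411 FPKM in WT colon. Igkv6-32 fell 4.64-fold and Igkv6-14 3.01-fold. By contrast Igkv6-13, next to Igkv6-14 in the locus, rose 15.9-fold, with 1040.5 FPKM in Elf4-KO colon, against 65.4 FPKM in WT colon, and Igkv6-17 rose 2.12-fold.

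All 3 listed Igkv12 and both listed Igkv13 segments fell, beside 52.0% of all listed genes. Igkv12-38 (chr6:69943186-69943648) had 3.50 FPKM in Elf4-KO colon, against 316 FPKM in WT colon, a 90.4-fold fall (q = 0.00712 in the authors' deposited table). Igkv12-46, next to Igkv1-117 in level among WT kappa segments, had 515 FPKM in Elf4-KO colon, against 1812 FPKM in WT colon, and Igkv12-41 fell 3.54-fold. Igkv13-85 and Igkv13-84 fell 7.61-fold and 3.78-fold, and they are 96.3% identical. In Igkv1, Igkv1-110 rose 2.23-fold alongside Igkv1-117, its 97.2% identical relative. Igkv1-135 fell 3.21-fold, and Igkv1-99 had 1.49 FPKM in Elf4-KO colon, against 45.2 FPKM in WT colon (q = 0.0399 in the authors' deposited table).

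Of the remaining kappa families, Igkv7-33 had 109.8 FPKM in Elf4-KO colon, against 5.16 FPKM in WT colon, a 21.3-fold rise for the sole gene of its family. Igkv5-45 and Igkv5-43, the most alike pair of all listed V segments at 98.6% identity, rose 8.30-fold and 2.2-fold, while Igkv5-39 fell 2.14-fold. Igkv14-100 rose 6.65-fold and Igkv2-109 2.35-fold.

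Sequence likeness and direction were then set side by side. For 43 of 86 listed V segments with a coding sequence, the nearest annotated segment of the same chain was at least 95% identical, and for 7 at least 98%. Gap columns count against identity, so segments with a shorter annotated coding sequence can have a near copy that this count misses. Igkv6-13 scored 79.5% to Igkv6-23, with 11 mismatches and 60 gap columns. Of 39 heavy V pairs with at least 90% identity, 20 moved in the same direction (51.3%), beside 52.8% of 676 heavy V pairs from different families. For kappa V pairs it was 22 of 36 (61.1%), beside 48.0% of 763 pairs from different families, which are still up to 79.6% identical. The median absolute difference between the 2 log2 ratios of a pair was 2.66 in the first heavy set and 2.73 in the second, and 1.61 and 3.03 in the kappa sets. The heavy shares lay close together, and the kappa shares were further apart. Pairs share members and reads, so these shares are descriptions without a test. How reads that match several segments were assigned is not given here, and its part in any single value was not tested.

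**Figure D4:**
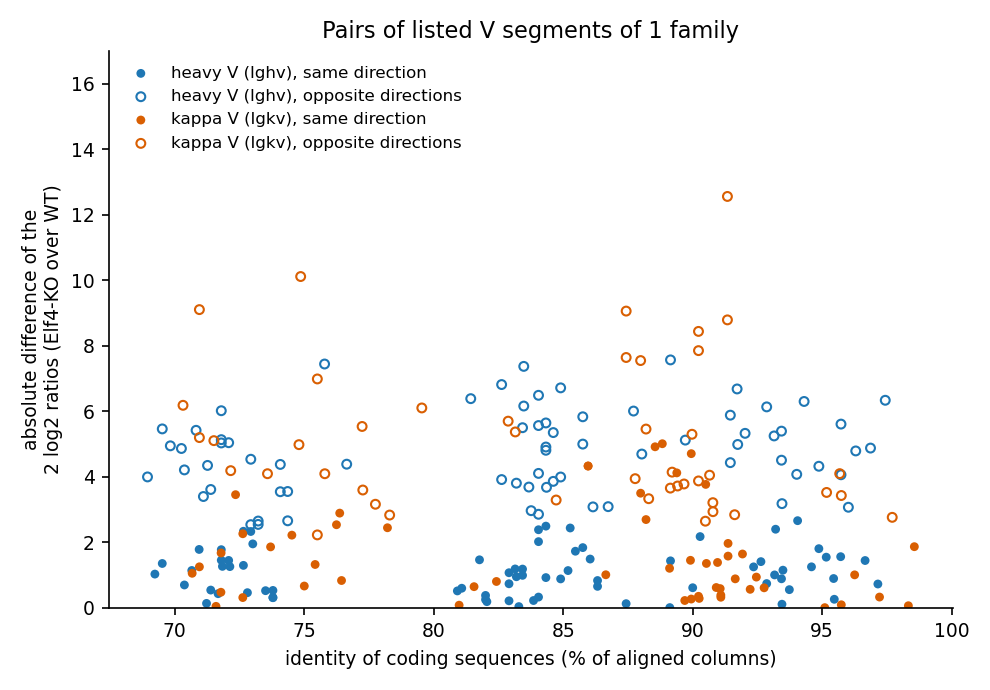
Each point is a pair of listed V segments of the same family, with the identity of their coding sequences (horizontal, % of aligned columns) and the absolute difference between their log2 ratios of Elf4-KO over WT (vertical). Filled points moved in the same direction and open points in opposite directions; open points occur up to 97.7% identity.

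Position in the locus was examined as a property that the choice of genes did not use. Annotated V genes of a locus were divided into 3 parts of like size (near, middle and far) by distance from the constant region, Ighm for heavy and Igkc for kappa segments. In the near part of the heavy locus, 15 of 20 listed segments rose, beside 48.0% of all listed genes. FPKM of the 20 summed to 10463 in Elf4-KO colon, against 3065 in WT colon. In the middle part 6 of 11 rose, with sums of 1607 in Elf4-KO and 1992 in WT. In the far part 6 of 12 rose, with sums of 7408 in Elf4-KO and 3995 in WT. The near part contains all listed Ighv2 and Ighv5 segments, so position and family cannot be told apart there.

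In the kappa locus the order was different, with 8 of 20 listed segments higher in the near part, 9 of 16 in the middle part and 4 of 6 in the far part. Over all listed genes 48.0% were higher. The near part contains all listed Igkv3, Igkv6 and Igkv8 segments, so position and family cannot be told apart there either. Kappa V segments lie in both orientations, and those opposite to Igkc are joined by inversion of the DNA between them. Of 27 listed segments opposite to Igkc, 15 rose and 12 fell, and of 15 in the orientation of Igkc, 6 rose and 9 fell. All listed Igkv4 segments lie opposite to Igkc and all listed Igkv3 segments in its orientation, so orientation is tied to family as well. Neighbouring listed segments shared a direction in 21 of 42 adjacent heavy pairs and 23 of 41 adjacent kappa pairs. Among pairs from different families, 52.8% of heavy and 48.0% of kappa pairs did, and the difference was not tested.

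**Figure D5:**
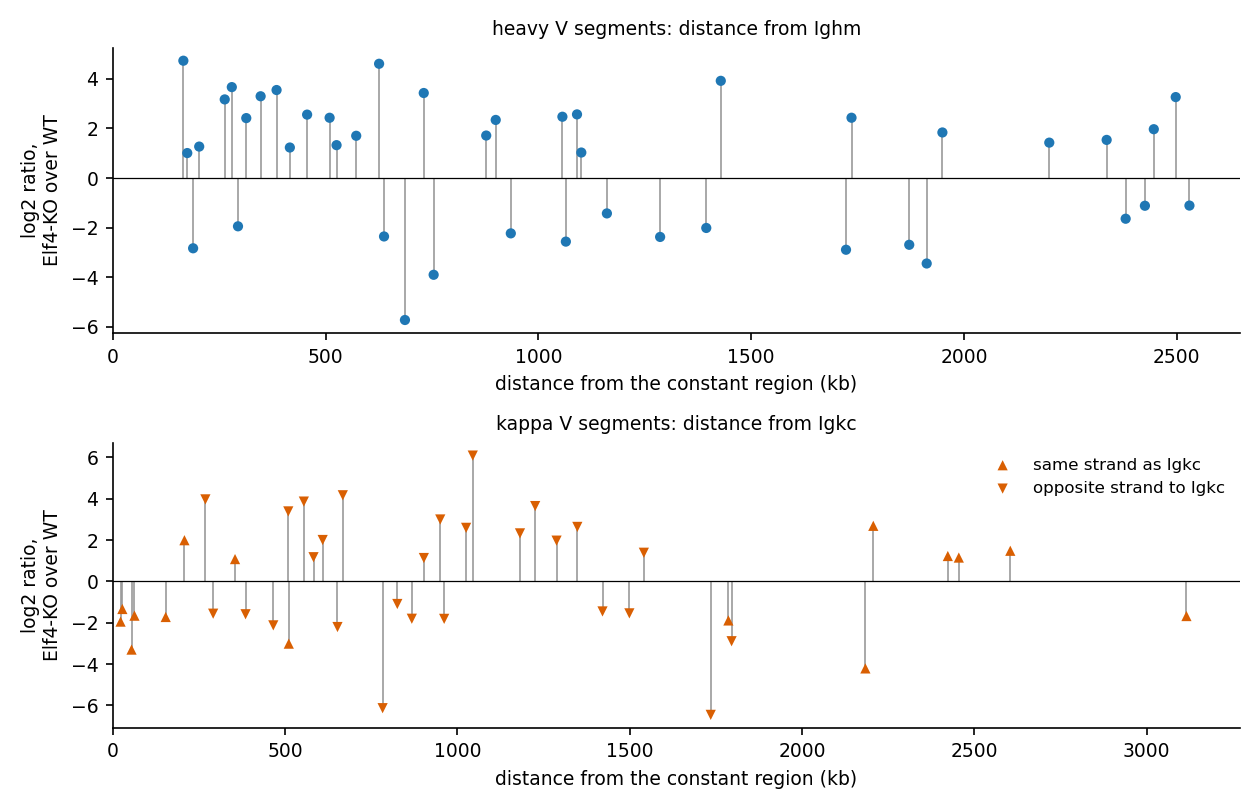
Log2 ratio of Elf4-KO over WT (FPKM + 1, vertical) of listed heavy V segments (upper panel) and kappa V segments (lower panel) against their distance from the constant region in kb (horizontal). Triangles in the lower panel point up for segments on the strand of Igkc and down for those on the opposite strand; 15 of 20 heavy segments in the near part of the locus lie above 0.

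Genes that mark B cells and plasma cells were measured in the same table. Of 19 B cell markers, 7 were listed and all fell, by 2.0-fold to 7.06-fold, with 52.0% of all listed genes lower. Their median log2 ratio was -1.58, and they summed to 35.6 FPKM in Elf4-KO colon, against 112 FPKM in WT colon. Cr2, a complement receptor of B cells, had 1.28 FPKM in Elf4-KO colon, against 9.07 FPKM in WT colon, Fcer2a, the low-affinity IgE receptor, fell 5.49-fold, and Blnk, a linker in B cell receptor signalling, had 13.4 FPKM in Elf4-KO colon, against 48.1 FPKM in WT colon. The defining genes Cd79a, Cd79b and Pax5 were outside the table. Of 16 plasma cell markers, 3 were listed, 1 higher and 2 lower, beside 48.0% higher and 52.0% lower of all listed genes. Prdm1, the regulator of plasma cell fate, rose 2.04-fold (11.3 FPKM in Elf4-KO, against 5.55 FPKM in WT), Cd38 fell 3.34-fold (115 FPKM in Elf4-KO, against 384 FPKM in WT) and Fkbp11 fell 2.02-fold (11.4 FPKM in Elf4-KO, against 23.1 FPKM in WT). Jchain, Sdc1, Tnfrsf17 and Mzb1, which define plasma cells more narrowly, were outside the table, and Prdm1 and Cd38 are also expressed by other cells.

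Of 14 antibody transport and Fc receptor genes, 8 were listed, 5 higher and 3 lower, beside 48.0% higher and 52.0% lower of all listed genes. Their median log2 ratio was 1.08, beside -0.76 over the table. Pigr fell 26.4-fold (23.0 FPKM in Elf4-KO, against 606 FPKM in WT), and Fcamr and Fcer2a fell 6.09-fold and 5.49-fold. The IgG receptors Fcgr1, Fcgr2b and Fcgr3, the Fc receptor chain Fcer1g and the IgG transporter Fcgrt rose between 2.05-fold and 2.88-fold. Of 20 homing and survival genes, 6 were listed, 4 higher and 2 lower, with a median of 1.42 and the same shares over all listed genes. Il10, Il6, Cxcl13 and Tgfb1 rose 18.8-fold, 10.2-fold, 3.43-fold and 2.15-fold, while Tnfrsf13c fell 2.0-fold. Ccl28, which draws IgA plasma cells to the colon, had 1.67 FPKM in Elf4-KO colon, against 35.0 FPKM in WT colon. Fcer2a and Tnfrsf13c are also counted among the B cell markers.

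Other cell types moved in the same tissue. All 12 epithelial markers fell, beside 52.0% of all listed genes, and their FPKM summed to 942 in Elf4-KO and 9946 in WT. The neutrophil list held 12 genes, with Camp, Elane and Mpo outside the table. Of the 9 inside it 8 rose, beside 48.0% of all listed genes, and Ly6g fell. The 9 together, Ly6g included, summed to 4094 FPKM in Elf4-KO and 1181 FPKM in WT. The table held 10 genes from a list of 16 that mark T and NK cells, with Cd4 and Gzmb among those outside it. All 10 fell, beside 52.0% of all listed genes, with sums of 66.7 FPKM in Elf4-KO and 224 FPKM in WT. FPKM is a share of the library, and the part of these shifts in the immunoglobulin values was not tested. Ly6g, the neutrophil marker that fell, had 146 FPKM in Elf4-KO colon, against 854 FPKM in WT colon. It made up most of the WT neutrophil sum, so that sum understates the rise of the other neutrophil markers. None of these markers was listed at 0. The V segments of the T cell receptor, the counterpart of these genes in T cells, are set beside them. Of these, 5 were listed, all at 0 in Elf4-KO and between 0.883 and 4.07 FPKM in WT, with 52.0% of all listed genes lower. At levels this low the limits of the table favour segments at 0 in a genotype, so the zeros partly reflect those limits. Immunoglobulin V segments went both ways, at a median of 194 FPKM in Elf4-KO and 164 FPKM in WT. The V segments of the 2 receptor types are not matched in level, and their contrast was not tested.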

How the data were processed

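Colon pieces were washed and frozen, RNA was taken up in Trizol and mRNA libraries were made with a Vazyme kit, per the labels' protocols. The submitters' processing notes list Bowtie 0.12.2, Cufflinks 2.2.1 and mm8 and give no role for any of them. The deposited table gives 1 FPKM value per gene and genotype, per the file headers, and the p-values and q-values are the authors' own from that table. How the 2 samples of a genotype were combined, and how reads shared by several segments were counted, are points not given in the sources used. V segments have a median coding length of 351 bases, and a value per length of so short a gene depends on how fragment length was treated.

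Segments were found by gene symbol, and all 90 identifiers carry the same symbol in GENCODE M21 on GRCm38. Their loci match that annotation in 88 cases after adding 1 to the start, so the coordinates are on GRCm38 and are printed from 1; Iglv1 and Iglc1, which share a wider locus, are the exceptions. Log2 ratios use FPKM + 1, which understates the change of low genes, and folds use FPKM alone and were not computed against a listed 0. Coding sequences were aligned globally with Biopython 1.88 (match 2, mismatch -1, gap opening -4, gap extension -1), and identity is over aligned columns, gap columns included. The scripts were tested on simulated data. Python 3.11.15, numpy 2.4.6, pandas 2.3.3 and matplotlib 3.10.9 were used.

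No test between genotypes was possible with 1 value per group, and depth and counting error are unknown. The segments, the 8 gene lists (125 genes) and the rules were chosen with earlier results of these data known. The rule for values named 50 segments: both constant segments, the 5 largest rises and falls and the 5 highest levels per chain and genotype, the extremes of each family with at least 3 listed members, and those listed at 0. Of each gene list it named the 3 largest changes, or all where 5 or fewer were listed; the epithelial, neutrophil and T cell lists are given by counts, and the result of 1 list is not reported here. Other segments and list genes are given to account for the whole set, chosen after their values were seen. The alternatives tried were q of at most 0.01, at least 4-fold, at least 1 or 5 FPKM, other pseudocounts, centring, and leaving out segments that share a locus, are listed at 0 or have a near copy.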

Additional observations from a re-analysis of the deposited data

How the results depend on the processing

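No paired analysis was possible because each genotype has 1 value, and for the same reason leaving out each sample was not run. Values were counted as moved beyond 1.5 times, since no spread between samples is known. No count moved with q of at most 0.01, with FPKM minimums of 1 or 5, or without segments that share a locus or are listed at 0. With a 4-fold limit, 31 segments were higher and 20 lower (17 heavy V higher, 12 kappa V higher and 8 kappa V lower), fewer by construction, and the median log2 ratio was 2.43 over all segments, 2.43 for heavy and 2.46 for kappa V segments. Without segments at least 95% identical to another annotated segment, an alternative chosen after seeing the data, 28 were higher and 19 lower (14 and 7 heavy V, 13 and 10 kappa V). The kappa V median, -0.01, lies between equal numbers of rises and falls and changed sign easily. It was 1.13 with the stricter q, 1.08 without the segment listed at 0 and with no pseudocount, 1.39 without near copies and 0.75 after centring. Centring on the whole table raised the median to 1.96 over all segments and 2.19 for heavy V, and turned no single segment, since each differs by at least 2-fold. The ratio of summed lambda V FPKM, 6.87 for Elf4-KO over WT, was 2.0 without Iglv1, which shares its locus with Iglc1, and 0.143 without both Iglv1 and Iglv2, which leaves Iglv3 alone. Unknown depth limits every value here.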
